A study of Mus musculus with 4 samples.

Results

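Natural killer (NK) and innate lymphoid barcodes made up 102 of the 20137 barcodes kept from the single-cell libraries of mouse tumours, 64 of 8204 in the Tc9 library and 38 of 11933 in the Tc1 library. They were chosen by measured values. Each had at least 1 UMI (a counted RNA molecule) of Ncr1, at least 1 UMI of Klrb1c and Klre1 summed, at most 3 UMIs of the macrophage genes Lyz2, C1qa, C1qb and Csf1r summed, and no T cell receptor beta (TRB) contig in the receptor library of the same sample. Barcodes with fewer than 500 detected genes, or with more than 10% of their UMIs from mitochondrial genes, had been removed. The Tc9 mice were wild-type B6 animals given Thy1.1+ Pmel-1 Tc9 cells, and the Tc1 mice were wild-type B6 animals given Thy1.1+ Pmel-1 Tc1 cells. Pmel-1 is a transgenic receptor of CD8 T cells for the melanocyte protein gp100, and Tc9 and Tc1 are CD8 T cell types known for IL-9 and for interferon-gamma. All hosts were Thy1.2+, bore a chimeric tumour and received an adjuvant with the cells. Tumours of 3 mice were pooled per group at day 30, enriched on Percoll and sorted for CD4+ T cells, so the barcodes described here are not the cells that the sort was labelled for.

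NK cells kill without a rearranged antigen receptor, through a balance of activating and inhibitory receptors, many of them lectin-like proteins of the Klr family encoded in a cluster on mouse chromosome 6. Conventional NK cells circulate, depend on the transcription factor Eomes and carry the integrin Itga2 (CD49b) and Ly49 receptors of the Klra genes. Group 1 innate lymphoid cells (ILC1) share Ncr1 and Tbx21 with them but stay in tissue and are known for the integrin Itga1 (CD49a), Cxcr6, Il7r and Tnfsf10 (TRAIL), while group 2 and group 3 innate lymphoid cells are known for type 2 cytokines and for Il22.

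Each group had 1 RNA library, so no test between Tc9 and Tc1 was possible and none is given. Cells of a library are not replicates. The 95% intervals below cover counting error only, and they treat the UMIs of a cell as independent, which makes them too narrow. The NK and innate lymphoid barcodes had a median of 9208 UMIs in Tc9 (2697 to 45462) and 5829 UMIs in Tc1 (1959 to 30949). Their summed depth was 726948 UMIs in Tc9 and 326008 UMIs in Tc1. The T cells used beside them were barcodes with a TRB contig and at least 1 UMI of Cd3d, Cd3e or Cd3g. They also had at most 3 UMIs of the macrophage genes. Their medians were 5830 UMIs in Tc9 (4006 cells) and 4573 UMIs in Tc1 (3138 cells). The composition of those T cells differed: 286 of them in Tc9 and 1539 in Tc1 had Cd8a or Cd8b1 UMIs and no Cd4 UMI. The libraries shared 148 barcode sequences, 1 of which belonged to an NK and innate lymphoid barcode of Tc9 and 0 to those of Tc1.

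The share of kept barcodes was 0.780% in Tc9 (exact binomial interval 0.601 to 0.995%) and 0.318% in Tc1 (0.225 to 0.437%). The difference was 0.462 percentage points (Newcombe interval 0.247 to 0.696). With at least 2 Ncr1 UMIs the difference was 0.163 points. Against the T cells of the same library plus the NK and innate lymphoid barcodes themselves, the shares were 1.57% in Tc9 and 1.20% in Tc1, with a difference of 0.376 points (-0.194 to 0.930). Among barcodes with at most 3 macrophage UMIs they were 0.790% in Tc9 and 0.639% in Tc1, a difference of 0.151 points (-0.148 to 0.437). Both of these intervals include 0. The sort for CD4 T cells also sets these shares.

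Along the rule, Ncr1 was found in 86 barcodes of Tc9 and 90 of Tc1, and the lectin-like receptors left 78 in Tc9 and 76 in Tc1. The macrophage limit left 78 in Tc9 and 56 in Tc1, and the TRB limit left 64 in Tc9 and 38 in Tc1. Just inside the Ncr1 threshold, 30 of the 64 in Tc9 and 8 of the 38 in Tc1 had exactly 1 Ncr1 UMI. Just outside the receptor threshold, 6 barcodes in Tc9 and 6 in Tc1 had Ncr1 but neither Klrb1c nor Klre1. The macrophage genes were at 0 UMIs in 61 of 64 barcodes in Tc9 and in 19 of 38 in Tc1, and outside that limit with no TRB contig lay 0 barcodes in Tc9 and 16 in Tc1.

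Most barcodes carried markers of group 1 cells. Eomes, which the rule did not use, had a UMI in 37 of 64 barcodes in Tc9 and 21 of 38 in Tc1. Tyrobp (DAP12) and Fcer1g, the adaptors that carry the signal of NK receptors, were both found in 64 of 64 barcodes in Tc9 and in 35 of 38 in Tc1. After thinning every barcode to 2000 UMIs, Tyrobp had a UMI in 87.5% of them in Tc9 (76.8 to 94.5%), against 0.804% of Tc9 T cells, and in 89.2% in Tc1 (74.6 to 97.0%), against 11.4% of Tc1 T cells. Unthinned, those shares were 100% in Tc9 against 1.87% of T cells, and 92.1% in Tc1 against 21.6% of T cells. Il22 and Il23r, known from group 3 innate lymphoid cells, had 0 UMIs in both libraries, which at a limit of 3 counts of the total allows shares of barcodes with a UMI of up to 4.69% in Tc9 and 8.11% in Tc1 on the thinned barcodes. Il4, Il5 or Il13 was found in 2 of 64 barcodes in Tc9 and 0 of 38 in Tc1, and Il17rb, a receptor of group 2 innate lymphoid cells, in 1 of 64 and 0 of 38. Other genes known from innate lymphoid cells outside group 1 were present, so the label was not met by every marker. Kit, a growth factor receptor of group 3 cells, had 28.9 CPM (UMIs scaled to the same total per class) in Tc9 barcodes against 0.188 CPM in Tc9 T cells, and 64.4 CPM in Tc1 barcodes against 3.19 CPM in Tc1 T cells, with a UMI in 12 of 64 and 10 of 38 barcodes. Tmem176a, also known from group 3 cells, had 82.5 CPM in Tc9 against 13.6 CPM in T cells, and 39.9 CPM in Tc1 against 16.0 CPM. Il17a had 10 UMIs, all in 1 barcode of Tc9 with Cd3 UMIs or a contig, and 0 in Tc1. Il1rl1, the IL-33 receptor of group 2 cells and regulatory T cells, was found in 8 of 64 barcodes in Tc9 and 3 of 38 in Tc1, none of them Cd3-negative as defined next.

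**Figure D1:**
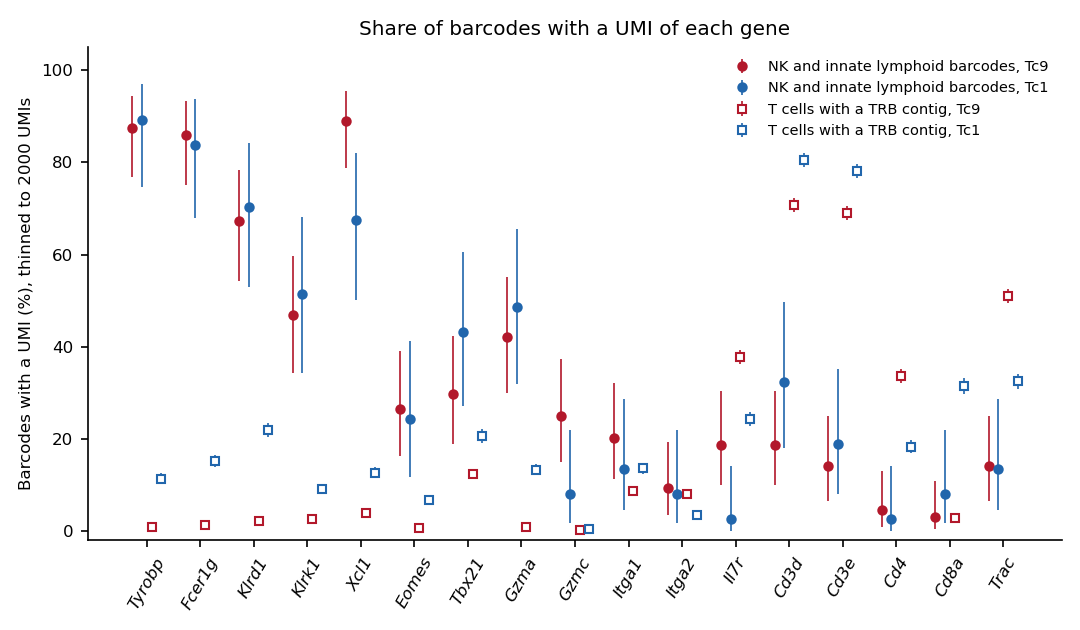
Share of barcodes with at least 1 UMI of each gene after thinning every barcode to 2000 UMIs, with exact 95% binomial intervals. Filled circles are NK and innate lymphoid barcodes of Tc9 (64) and Tc1 (37), open squares are T cells with a TRB contig. Fcer1g is at 85.9% in Tc9 and 83.8% in Tc1 of the NK and innate lymphoid barcodes, against 1.23% and 15.2% of the T cells. Cd3d is lower in them than in T cells, which were chosen with a UMI of Cd3d, Cd3e or Cd3g.

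T cell transcripts were found in a part of the barcodes. Cd3d, Cd3e or Cd3g had a UMI in 20 of 64 barcodes in Tc9 (31.3%) and 18 of 38 in Tc1 (47.4%). In macrophage barcodes, with over 20 UMIs of the macrophage genes and no receptor contig, the share was 9 of 22 in Tc9 (40.9%, median 2855 UMIs) and 822 of 3183 in Tc1 (25.8%, median 8914 UMIs). Thinned to 2000 UMIs, it was 23.4% in the NK and innate lymphoid barcodes of Tc9 against 33.3% of the 18 macrophage barcodes deep enough, and 37.8% in those of Tc1 against 16.3%. The Tc9 share was thus not above that of these few macrophage barcodes, but such shares do not count the UMIs per barcode. At least 2 Cd3 UMIs were found in 17 of 64 barcodes in Tc9 and 15 of 38 in Tc1. Barcodes with Cd3 held from 1 to 57 Cd3 UMIs each in Tc9 and from 1 to 74 in Tc1. They also held 346858 of the 726948 summed UMIs in Tc9 and 159503 of the 326008 in Tc1, so they weigh heavily in the sums over all barcodes. Cd3 together with Trac, the alpha constant gene, was found in 18 of 64 in Tc9 and 6 of 38 in Tc1. The source of the Cd3 UMIs was not tested. The free RNA share estimated from macrophage and melanoma genes was 15.0% in Tc9 (5 UMIs of those genes) and 4.13% in Tc1 (60 UMIs), against 19.5% and 20.2% in the T cells. Both classes had been limited to at most 3 UMIs of other macrophage genes, which can make this estimate too low. Those with Cd3 had a median of 16694 UMIs in Tc9, against 8325 UMIs without Cd3, and 6174 UMIs in Tc1, against 5220 without Cd3. All 15 barcodes with a Cd4 UMI in Tc9 and all 4 in Tc1 were among those with Cd3. Trdc, the delta constant gene, which NK cells are also known to transcribe unrearranged, had a UMI in 5 barcodes of Tc9 and 9 of Tc1, and together with Cd3 in 1 of Tc9 and 6 of Tc1. Without a Cd3 UMI and without any receptor contig, 44 barcodes remained in Tc9 and 20 in Tc1. They are called Cd3-negative here, and values for them stand beside the lists below and beside many of the named genes. No doublet caller was run, and whether the Cd3 UMIs came from a second cell in the droplet was not tested.

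A receptor alpha (TRA) contig was present in 5 barcodes of Tc9, all of them with Cd3 UMIs, and in 0 of Tc1. Their junction (CDR3) sequences are shown because they are the receptor sequence found among these barcodes, and because they show whether the barcodes share a receptor with T cells. They come from the deposited contigs of genes on chromosome 14, 5′ to 3′, with the part between the conserved first and last codons in capitals.
alpha 1 (TRAV12D-3, TRAJ27): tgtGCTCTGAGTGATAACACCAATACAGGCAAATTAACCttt
alpha 2 (TRAV14-2, TRAJ31): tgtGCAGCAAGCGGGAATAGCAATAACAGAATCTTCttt
alpha 3 (TRAV3-3, TRAJ48): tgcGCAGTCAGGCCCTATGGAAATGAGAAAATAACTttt
alpha 4 (TRAV6-7-DV9, TRAJ56): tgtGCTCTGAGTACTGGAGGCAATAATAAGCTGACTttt
alpha 5 (TRAV7D-2, TRAJ26): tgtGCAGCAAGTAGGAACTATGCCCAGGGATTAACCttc

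The sequence of alpha 2 was found in 14 barcodes of the Tc9 library, that of alpha 4 in 20 and that of alpha 5 in 8, while alpha 1 and alpha 3 were each found in 1. The barcode of alpha 5 also held 53 UMIs of Tyrobp and 2 of Eomes, beside 15 Cd3 UMIs, and the barcode of alpha 4 held 1 Tyrobp UMI and 0 Eomes UMIs beside 20 Cd3 UMIs. The invariant alpha chain of NKT cells, TRAV11 joined to TRAJ18, was found in 0 NK and innate lymphoid barcodes of either library, against 4 kept barcodes of Tc9 and 24 of Tc1.

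Markers of dendritic cells, macrophages and melanoma were lower in Tc9 than in Tc1. The summed level of 11 dendritic cell markers was 121 CPM in Tc9 and 831 CPM in Tc1, with 5 of the markers at 0 in Tc9 and 2 at 0 in Tc1. The 11 macrophage markers that the rule did not use summed to 68.8 CPM in Tc9, with 6 at 0, and to 322 CPM in Tc1, with 1 at 0. Melanoma markers summed to 1.38 CPM in Tc9, with 5 of 6 at 0, and to 67.5 CPM in Tc1, with 1 of 6 at 0. In the T cells the same dendritic list summed to 141 CPM in Tc9 and 1141 CPM in Tc1, so the libraries differed in the same direction there. The neutrophil, fibroblast, mast cell and red cell lists summed to at most 1.38 CPM in Tc9 and at most 39.9 CPM in Tc1. Other lists did not follow that direction. The 7 regulatory T cell markers, none of them at 0, summed to 1033 CPM in Tc9 and 794 CPM in Tc1, against 1667 CPM in Tc9 T cells and 905 CPM in Tc1 T cells. In Cd3-negative barcodes they summed to 526 CPM in Tc9 and 589 CPM in Tc1, with 2 of 7 at 0 in each. B and plasma cell markers summed to 85.3 CPM in Tc9, with 5 of 7 at 0, and to 95.1 CPM in Tc1, with 4 of 7 at 0. Endothelial markers summed to 60.5 CPM in Tc9, with 4 of 6 at 0, and to 64.4 CPM in Tc1, with 3 of 6 at 0. The part of RNA from these cells in the results below was not tested.

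Set beside the T cells of their own library, the NK and innate lymphoid barcodes were separated by receptors, adaptors and granule proteins on the higher side and by T lineage genes on the lower side. Since the same cells and genes chose them, these ratios are a description. Of 2873 genes with at least 50 CPM, 20 UMIs and 5% of the cells of either class in both libraries, 80 (2.78%) were at least 2-fold higher than in T cells in both libraries and 49 (1.71%) at least 2-fold lower in both. In single libraries 4.92% of 3311 genes were higher and 3.99% lower in Tc9, and 4.79% of 3526 genes were higher and 5.67% lower in Tc1. Across the 2873 genes the log2 ratios of the libraries had a Pearson correlation of 0.742 and a Spearman correlation of 0.479; genes are not independent replicates.

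Among the receptors outside the genes of the rule, which were left out of the ranking, the highest ratios belonged to Ly49 and NKR-P1 genes. Klra8 (Ly49H, an activating receptor known for binding a cytomegalovirus protein) had 93.5 CPM in Tc9 barcodes against 1.20 CPM in Tc9 T cells, and 193 CPM in Tc1 barcodes against 1.23 CPM in Tc1 T cells. The log2 ratios were 6.28 and 7.30. The inhibitory NKR-P1 gene Klrb1b had 351 CPM in Tc9 against 1.54 CPM in T cells, and 178 CPM in Tc1 against 3.33 CPM. Klra4 (Ly49D), Klrb1a, Klri2 and Klrc2 (NKG2C) were also among the 12 highest genes. Of the 16 measured genes listed as activating receptors, 12 were 2-fold higher than in T cells in both libraries, with a median log2 ratio of 4.57 in Tc9 and 2.76 in Tc1. Of 6 inhibitory receptor genes, 3 were.

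The adaptors split. Tyrobp had 1314 CPM in Tc9 against 17.1 CPM in T cells, and 2055 CPM in Tc1 against 95.4 CPM. Fcer1g had 1501 CPM in Tc9 against 19.0 CPM in T cells, and 1475 CPM in Tc1 against 119 CPM. Their partner Hcst (DAP10), which carries NKG2D signals and lies next to Tyrobp on chromosome 7 (7:30417712-30419854, with Tyrobp at 7:30413782-30417582, GRCm38.p6), was at T cell level, with log2 ratios of -0.22 in Tc9 and 0.08 in Tc1. In all, 4 of 10 measured adaptor genes were 2-fold higher in both libraries and 0 were lower.

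Granule and secreted proteins followed. Gzmc (granzyme C, 14:56231397-56241647) had the largest ratio of all ranked genes in Tc9, with 2755 CPM against 2.66 CPM in T cells, and reached 2718 CPM in Tc1 against 28.2 CPM in T cells. Gzma (granzyme A, 13:113093824-113100981) had 1543 CPM in Tc9 against 45.9 CPM, and 2939 CPM in Tc1 against 550 CPM. Perforin (Prf1) had 188 CPM in Tc9 against 4.95 CPM, and 337 CPM in Tc1 against 36.9 CPM. Xcl1, a chemokine that attracts cross-presenting dendritic cells, had 2493 CPM in Tc9 against 131 CPM, and 3935 CPM in Tc1 against 528 CPM. Of 12 measured granule genes, 5 were 2-fold higher in both libraries. Styk1, the carbonic anhydrase Car2, the protease gene Adamts14 and the lipopolysaccharide hydrolase Aoah completed the 12 highest.

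The lowest genes against T cells were Sit1, a T cell membrane adaptor, then Slfn1, Cd40lg, Cd5, Cd6 and Slamf1. Sit1 had 6.88 CPM in Tc9 against 68.4 CPM in T cells, and 3.07 CPM in Tc1 against 56.2 CPM. Of 17 measured genes of the T cell receptor complex and T lineage, 12 were 2-fold lower in both libraries and 0 higher. The T cells were chosen with a UMI of Cd3d, Cd3e or Cd3g, so the ratios of these 3 genes follow in part from that choice. Cd3e was still present, with 172 CPM in Tc9 against 602 CPM, and 202 CPM in Tc1 against 762 CPM, all of it from the barcodes with Cd3 UMIs described above. The 26 cell cycle genes summed to 1121 CPM in Tc9 barcodes against 1215 CPM in Tc9 T cells, and to 911 CPM in Tc1 barcodes against 3037 CPM in Tc1 T cells. Mki67 or Top2a had a UMI in 14 of 64 barcodes in Tc9 and 13 of 38 in Tc1, without thinning.

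**Figure D2:**
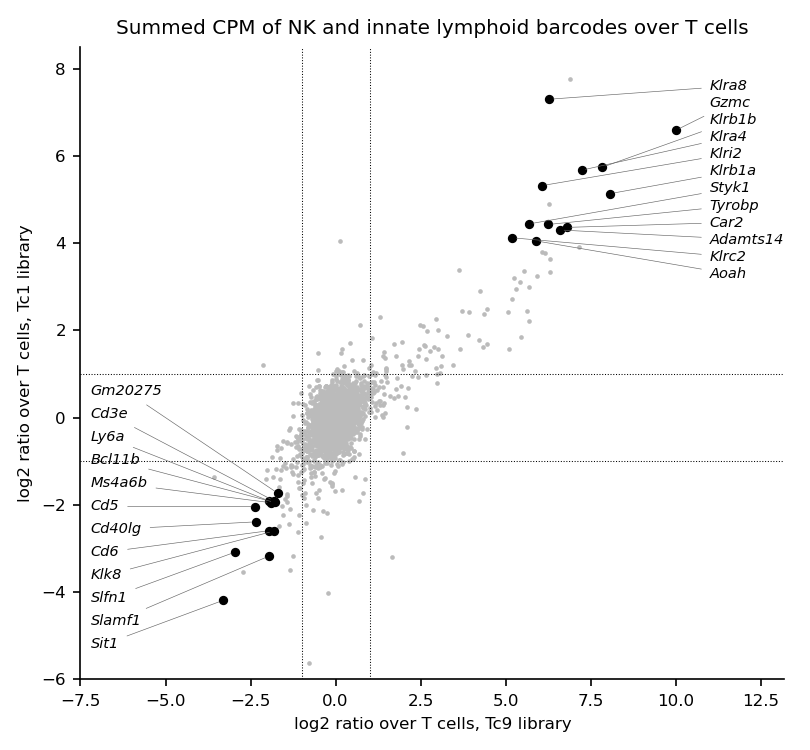
Log2 ratio of summed CPM of NK and innate lymphoid barcodes over T cells, Tc9 library on the horizontal axis and Tc1 library on the vertical axis, for 2873 genes. Black points are the 12 highest and 12 lowest genes by the smaller of both ratios, and dotted lines mark 2-fold. Among the black points, which leave out the genes of the rule, Gzmc has the largest ratio in Tc9 and Klra8 in Tc1.

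Few barcodes held both granzymes. In Tc9, 30 of 64 had Gzma and no Gzmc, 17 had Gzmc and no Gzma, 0 had both and 17 had neither. In Tc1, 19 of 38 had Gzma alone, 6 had Gzmc alone, 2 had both and 11 had neither. Among the barcodes with Gzmc UMIs, the median level was 3583 CPM (31 UMIs) in Tc9 and 222 CPM (2.5 UMIs) in Tc1. The 3 barcodes with the most Gzmc held 67.6% of its UMIs in Tc9 and 99.1% in Tc1. In Tc1 they held 621, 251 and 6 UMIs, so the Tc1 sum rests almost wholly on the first 2.

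**Figure D3:**
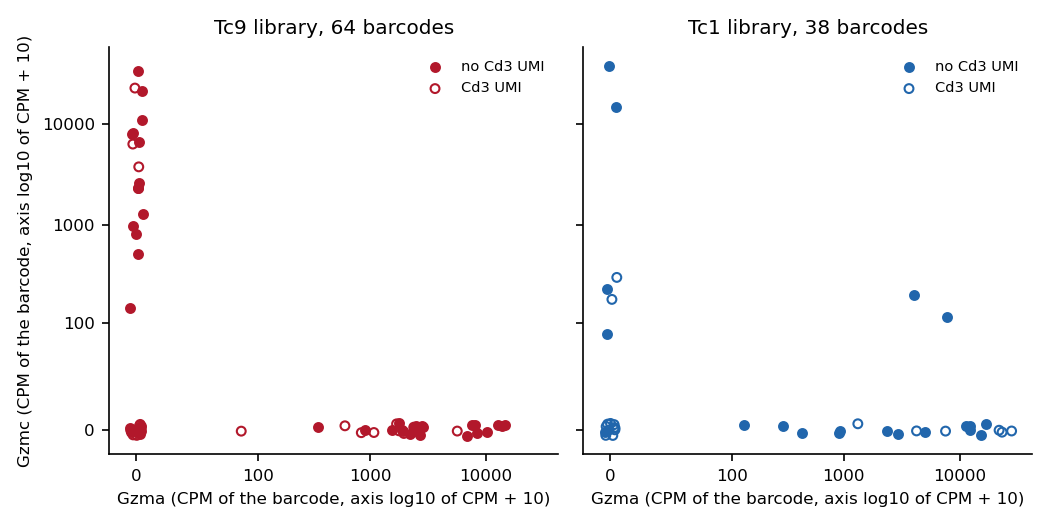
Gzma and Gzmc in each NK and innate lymphoid barcode, Tc9 on the left and Tc1 on the right, in CPM of the barcode on axes that are log10 of CPM + 10, with a small random shift of the points. Filled points have no Cd3 UMI. In Tc9 no barcode lies away from both axes, and in Tc1 2 barcodes do.

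The other genes that went with this division were looked up after the values were seen and have no test. In Tc9, 14 of the 17 Gzmc barcodes and 20 of the 30 Gzma barcodes were Cd3-negative. The counts below are over all barcodes of each group, and the part of T cell transcripts in them was not tested. In Tc9 the Gzmc barcodes were the deeper ones, with a median of 11721 UMIs against 8356 UMIs for the Gzma barcodes. Klra8, Klra4, Klra7 and Klra9 nevertheless had UMIs in 0 of the 17 Gzmc barcodes, which at a limit of 3 counts of the total allows a share with a UMI of up to 17.6%, against 12, 7, 20 and 9 of the 30 Gzma barcodes. Itga2 was found in 1 of 17 Gzmc barcodes against 18 of 30 Gzma barcodes. Eomes was found in 5 of 17 against 27 of 30.

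In the other direction, Itga1 was found in 10 of 17 Gzmc barcodes against 10 of 30 Gzma barcodes, and Cxcr6 in 12 of 17 against 11 of 30. Tmem176b, a membrane protein gene known from tissue innate lymphoid cells, was found in 13 of 17 against 4 of 30. Tcrg-C4, a gamma constant gene, had a UMI in 11 of 17 Gzmc barcodes against 1 of 30 Gzma barcodes. Tbx21 was found at about the same rate, in 15 of 17 and 26 of 30. Xcl1 reached 4548 CPM in the Gzmc barcodes and 1427 CPM in the Gzma barcodes, and Ccl5, a chemokine of cytotoxic cells, 280 CPM and 4049 CPM.

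In Tc1 the same contrasts rest on 6 Gzmc barcodes with a median of 15210 UMIs and 19 Gzma barcodes with a median of 4600 UMIs. The 4 of these Gzmc barcodes with the most Gzmc held 621, 251, 6 and 4 Gzmc UMIs, so most of this group held few. Tmem176b was found in 4 of 6 against 1 of 19, Tcrg-C4 in 4 of 6 against 1 of 19, Itga1 in 4 of 6 against 5 of 19, and Cxcr6 in 3 of 6 against 1 of 19. Klra8 was found in 1 of 6 against 10 of 19, Klra7 in 1 of 6 against 8 of 19, Eomes in 3 of 6 against 13 of 19, and Itga2 in 3 of 6 against 8 of 19, so the contrast of Eomes and Itga2 was not as wide as in Tc9. Depth differed between these groups. Some barcodes of both held Cd3 UMIs, up to 20 in a Gzmc barcode and 74 in a Gzma barcode. The part of depth or of T cell transcripts in the shares was not tested.

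The integrins gave a related picture over all barcodes, without thinning. Itga1 without Itga2 was seen in 22 of 64 barcodes in Tc9 and 5 of 38 in Tc1. Itga2 without Itga1 was seen in 14 of 64 in Tc9 and 8 of 38 in Tc1, both in 10 of 64 in Tc9 and 5 of 38 in Tc1, and neither in 18 of 64 in Tc9 and 20 of 38 in Tc1. Any of 8 Ly49 genes was found in 31 of 64 barcodes in Tc9 (48.4%, 35.8 to 61.3%) and 28 of 38 in Tc1 (73.7%, 56.9 to 86.6%), although the Tc1 barcodes were shallower.

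Between the groups, the Tc9 barcodes had higher levels of TGF-beta feedback genes, Il7r, Runx3, Bcl2 and Vegfa, and lower levels of glycolytic enzymes, the chemokines Ccl3, Ccl4 and Ccl5, Irf8 and Klrg1. Of 3561 genes at the minimum, 281 (7.89%) were at least 2-fold higher in Tc9 barcodes and 272 (7.64%) at least 2-fold lower. In the T cells, 5.36% of the same genes were 2-fold higher in Tc9 and 6.88% lower. The median log2 ratio over these genes was -0.07 in the NK and innate lymphoid barcodes and -0.05 in T cells. Among Cd3-negative barcodes 10.9% of 3386 genes were higher and 11.1% lower, at a smaller number of cells. Of the 281 higher genes, 116 were also 2-fold higher in T cells and 6 were 2-fold lower there. Of the 272 lower genes, 92 were also 2-fold lower in T cells and 1 was 2-fold higher.

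Genes of the TGF-beta and activin response were higher in Tc9 barcodes in part. Of 10 measured genes, 6 were 2-fold higher in Tc9 barcodes and 0 lower, with a median log2 ratio of 1.23. The T cells had 6 of 10 higher, 1 lower and a median of 1.24, and the Cd3-negative barcodes 8 of 10 higher with a median of 1.59. Ski, a corepressor of SMAD proteins, had 194 CPM in Tc9 and 21.5 CPM in Tc1, a log2 ratio of 3.17 (2.10 to 4.52). It had a UMI in 45 of 64 barcodes in Tc9 and 7 of 38 in Tc1. Its relative Skil had 180 CPM in Tc9 and 52.1 CPM in Tc1 (1.79, 1.06 to 2.61). The feedback inhibitor Smad7 had 473 CPM in Tc9 and 153 CPM in Tc1 (1.62, 1.19 to 2.08), and Pmepa1 had 122 CPM in Tc9 and 36.8 CPM in Tc1 (1.73, 0.86 to 2.74). In Cd3-negative barcodes the log2 ratios were 3.79 for Ski, 2.32 for Skil, 1.83 for Smad7 and 1.90 for Pmepa1. Tgfbr2, a receptor chain, did not reach 2-fold (0.50). The list median was 0.47 after thinning to 2000 UMIs and 0.77 without barcodes above 2 times the median UMIs of these barcodes, and Skil was at 0.87 after thinning.

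Genes of ILC1 and tissue residence were higher in part. Of 13 measured genes, 3 were 2-fold higher in Tc9 barcodes and 0 lower, with a median of 0.71, against 4 higher, 1 lower and a median of 0.18 in T cells. Il7r, the IL-7 receptor, had 193 CPM in Tc9 and 33.7 CPM in Tc1, a log2 ratio of 2.51 (1.63 to 3.55). It was found in 27 of 64 barcodes in Tc9 and 6 of 38 in Tc1. The phosphatase gene Inpp4b had 747 CPM in Tc9 and 252 CPM in Tc1 (1.57, 1.23 to 1.92) and was found in 54 of 64 barcodes in Tc9 and 15 of 38 in Tc1. Itga1 had 103 CPM in Tc9 and 67.5 CPM in Tc1 (0.61, -0.09 to 1.37). Cxcr6 had 116 CPM in Tc9 and 61.3 CPM in Tc1 (0.91, 0.20 to 1.70).

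Among Cd3-negative barcodes 6 of 13 of these genes were 2-fold higher in Tc9, with a median of 0.76, where 10.9% of all genes were called higher, against 7.89% in all barcodes. They had log2 ratios of 2.67 for Il7r, 2.75 for Inpp4b, 1.70 for Itga1 and 3.98 for Cxcr6. The last rests on 36 UMIs in Tc9 and 1 UMI in Tc1, with an interval of 1.41 to 9.32. Itgae, the integrin alpha chain of epithelial residence, had 22 UMIs in all 64 barcodes of Tc9 and 0 in the 38 of Tc1, at least 3.29-fold higher against a floor of 3 counts in the Tc1 group. Of those, 4 UMIs came from Cd3-negative barcodes.

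Conventional NK genes were lower in part. Of 12 measured genes, 5 were 2-fold lower in Tc9 barcodes and 0 higher, with a median of -0.76. T cells had 8 lower, 1 higher and a median of -1.84, and Cd3-negative barcodes 6 lower and a median of -1.13. The transcription factor Irf8 had 279 CPM in Tc9 and 739 CPM in Tc1 (-1.40, -1.68 to -1.13), with -2.06 in Cd3-negative barcodes. Klra8 had 93.5 CPM in Tc9 and 193 CPM in Tc1 (-1.05, -1.56 to -0.53), and -0.91 with TMM scaling. Eomes, at 114 CPM in Tc9 and 156 CPM in Tc1, stayed within 2-fold (-0.45, -0.97 to 0.08), as did Itga2 at 71.5 CPM in Tc9 and 64.4 CPM in Tc1.

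Among the transcription factors, 3 of 16 measured genes were 2-fold higher in Tc9 barcodes and 1 lower, with a median of 0.18. Runx3, a factor of cytotoxic lymphocytes, had 414 CPM in Tc9 and 138 CPM in Tc1 (1.58, 1.13 to 2.07), against a log2 ratio of 0.19 in T cells. Rora had 325 CPM in Tc9 and 101 CPM in Tc1 (1.68, 1.15 to 2.25), with 2.29 in T cells. Gata3 had 105 CPM in Tc9 and 49.1 CPM in Tc1 (1.09, 0.30 to 1.97), with 2.16 in T cells. Tbx21 had 164 CPM in Tc9 and 187 CPM in Tc1 (-0.19, -0.65 to 0.28). The survival gene Bcl2 had 424 CPM in Tc9 and 172 CPM in Tc1 (1.30, 0.89 to 1.74), with -0.05 in T cells. In Cd3-negative barcodes Runx3 was at 2.23, Bcl2 at 2.21, Rora at 1.87 and Gata3 at 1.72, the last on 30 UMIs in Tc9 and 4 in Tc1. Runx3 was within 2-fold after thinning (0.70) and without the deepest barcodes (0.86), Bcl2 with macrophage genes at 0 (0.96), and Gata3 after subtraction of expected free RNA (0.36) and by mean CPM of single cells (0.90). Whether Runx3 or Bcl2 differed between NK and innate lymphoid barcodes and T cells could not be tested with 1 library per group.

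Killing genes were mostly within 2-fold between the groups. Of 13 measured granule genes, 1 was 2-fold lower in Tc9 barcodes and 0 higher, with a median of -0.19, whereas 8 of the 13 were 2-fold lower in Tc9 T cells, with a median of -1.55. The Tc9 T cells held fewer CD8 T cells than the Tc1 T cells, as given above. Within CD8 T cells 7 of the 13 were lower and 1 higher (median -1.05), and within CD4 T cells 5 were lower (median -0.76). Among Cd3-negative barcodes 5 of 15 granule genes were 2-fold lower in Tc9 and 1 higher, with a median of -0.48. Gzmc had 2755 CPM in Tc9 and 2718 CPM in Tc1 (0.02), but this value rests on the Tc1 barcodes with 621 and 251 Gzmc UMIs. It was -0.48 in Cd3-negative barcodes and 7.62 without barcodes above 2 times the median UMIs. Gzma had 1543 CPM in Tc9 and 2939 CPM in Tc1 (-0.93), Gzmb 231 CPM in Tc9 and 402 CPM in Tc1 (-0.80), and Prf1 188 CPM in Tc9 and 337 CPM in Tc1 (-0.84). In Cd3-negative barcodes Gzmb was at -1.19 and Prf1 at -1.01. Gzma depended on the cells kept, with 0.12 where macrophage genes were at 0 and -2.21 without the deepest barcodes. Interferon-gamma (Ifng) had 183 CPM in Tc9 and 169 CPM in Tc1 (0.12, -0.35 to 0.60). The lower gene was the granzyme inhibitor Serpinb6b, with 150 CPM in Tc9 and 316 CPM in Tc1 (-1.07, -1.48 to -0.67), and -0.70 where macrophage genes were at 0.

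The adaptors did not reach 2-fold in either direction, 0 of 12, with a median of 0.10, and 4 of 16 activating receptors were 2-fold lower in Tc9. Cd7 had 268 CPM in Tc9 and 843 CPM in Tc1 (-1.65, -1.93 to -1.38), and Cd160 had 75.7 CPM in Tc9 and 172 CPM in Tc1 (-1.18, -1.75 to -0.62), but was within 2-fold in Cd3-negative barcodes (-0.29). Of 9 inhibitory receptors 2 were 2-fold lower. Klrg1, a marker of terminally matured NK cells, had 17.9 CPM in Tc9 and 85.9 CPM in Tc1 (-2.26, -3.34 to -1.27). Klra1 (Ly49A) had 15.1 CPM in Tc9 and 107 CPM in Tc1 (-2.83, -3.95 to -1.82). In Cd3-negative barcodes Cd7 was at -1.30, Klrg1 at -3.28 and Klra1 at -1.43, the last on 11 UMIs in Tc9 and 13 in Tc1, and 5 of 16 activating and 5 of 10 inhibitory receptors were 2-fold lower.

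The inflammatory chemokines were lower in Tc9. Ccl3 had 106 CPM in Tc9 and 635 CPM in Tc1 (-2.58, -2.98 to -2.20), Ccl4 601 CPM in Tc9 and 1721 CPM in Tc1 (-1.52, -1.70 to -1.33), and Ccl5 2354 CPM in Tc9 and 5638 CPM in Tc1 (-1.26, -1.36 to -1.16). In T cells the log2 ratios were -3.98, -2.75 and -3.12 for these genes, and in Cd3-negative barcodes -2.76, -1.80 and -0.97. With macrophage genes at 0, which leaves 61 barcodes in Tc9 and 19 in Tc1, Ccl4 was at -0.78 and Ccl5 at -0.82. For Ccl4 the 3 barcodes with the most UMIs held 23.6% in Tc9 and 68.3% in Tc1, and the median barcode had 183 CPM in Tc9 and 202 CPM in Tc1, so the Ccl4 difference in sums rests on a few Tc1 barcodes. Xcl1 had 2493 CPM in Tc9 and 3935 CPM in Tc1 in sums (-0.66, and -0.74 in Cd3-negative barcodes), but the median barcode was higher in Tc9, with 2122 CPM in Tc9 and 748 CPM in Tc1. Its direction turned to 1.56 without barcodes above 2 times the median UMIs, and 3 barcodes held 18.1% of its UMIs in Tc9 and 62.1% in Tc1. The T cell attractant Ccl1 sat in few cells. In Tc1, 3 Cd3-negative barcodes held 416, 387 and 270 of its 1103 UMIs, together with 201, 278 and 310 UMIs of Xcl1 and 13, 44 and 23 UMIs of Crtam, an adhesion receptor of activated cytotoxic cells. In Tc9, 2 barcodes with Cd3 held 185 and 73 of 262 UMIs, and the Cd3-negative ones held 0.

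Glycolytic enzymes were lower in Tc9 together. Of 16 measured genes of glycolysis and hypoxia, 10 were 2-fold lower in Tc9 barcodes and 1 higher, with a median of -1.50, against 9 lower, 0 higher and a median of -1.23 in T cells. In Cd3-negative barcodes 10 of 15 were lower and 1 higher, with a median of -1.47. Gapdh had 868 CPM in Tc9 and 3021 CPM in Tc1 (-1.80, -1.95 to -1.65), Pkm 200 CPM in Tc9 and 706 CPM in Tc1 (-1.82, -2.13 to -1.52), and Ldha 386 CPM in Tc9 and 1095 CPM in Tc1 (-1.50, -1.73 to -1.27). Gapdh was at -2.10 in Cd3-negative barcodes. The glucose transporter Slc2a1 was within 2-fold (-0.10). Nuclear genes of oxidative phosphorylation had a median of -0.52, with 3 of 21 lower by 2-fold. The glycolysis median was -0.65 with at least 2 Ncr1 UMIs and -0.76 without barcodes above 2 times the median UMIs.

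Vegfa, the vascular growth factor, was the single gene of that list that was higher. It had 154 CPM in Tc9 and 36.8 CPM in Tc1, a log2 ratio of 2.07 (1.20 to 3.06), and was found in 30 of 64 barcodes in Tc9 and 7 of 38 in Tc1. In T cells its log2 ratio was -2.12, with 4.24 CPM in Tc9 and 18.4 CPM in Tc1. In Cd3-negative barcodes the ratio was 2.96, on 71 UMIs in Tc9 and 4 in Tc1. In Tc9 it was found in 10 of 17 Gzmc barcodes and 10 of 30 Gzma barcodes.

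**Figure D4:**
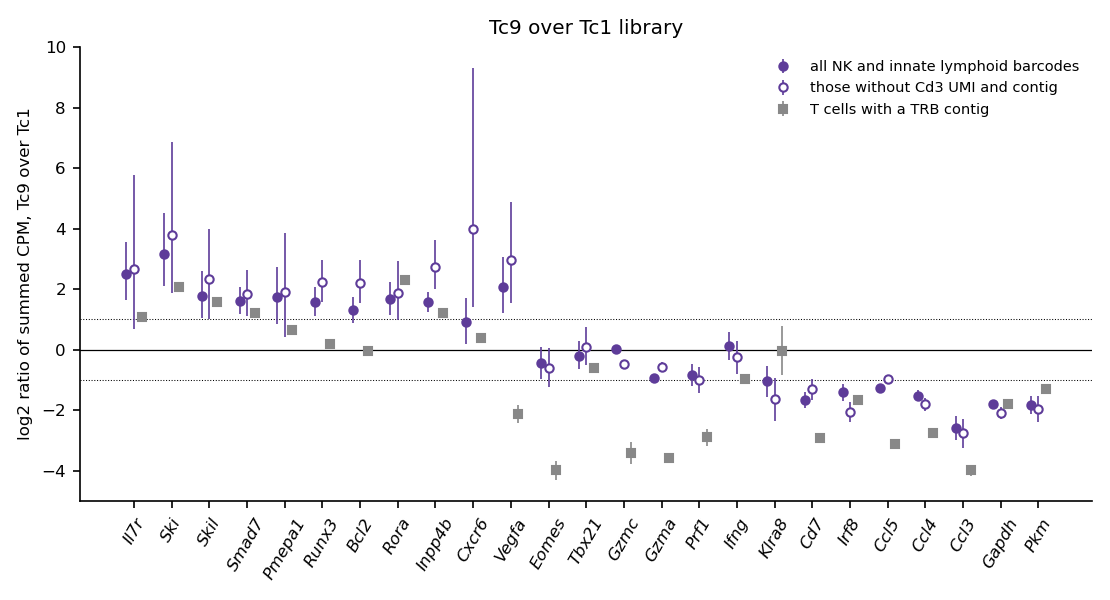
Log2 ratio of summed CPM, Tc9 over Tc1, with exact conditional 95% counting intervals, in all NK and innate lymphoid barcodes (filled circles), in those without Cd3 UMI and contig (open circles) and in T cells with a TRB contig (grey squares). Dotted lines mark 2-fold. Ski and Il7r are higher in Tc9 in all 3 sets, while Vegfa is higher in both sets of NK and innate lymphoid barcodes and lower in T cells.

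The highest ratios of all were partly those of T cell transcripts. Areg (amphiregulin) had 152 UMIs in 7 of 64 barcodes in Tc9 and 0 UMIs in Tc1, at least 22.7-fold higher against a floor of 3 counts in the Tc1 group. Of those UMIs 3 came from Cd3-negative barcodes, too few for a ratio. Cd40lg, Icos, Il1rl1 and Trat1 were likewise 2-fold higher in all Tc9 barcodes, and in Cd3-negative barcodes they had 0, 6, 0 and 8 UMIs in Tc9 against 0, 2, 0 and 0 in Tc1. Il31ra, a cytokine receptor chain, did not follow this pattern, with 263 CPM in Tc9 and 30.7 CPM in Tc1 (3.10, 2.19 to 4.18) and a log2 ratio of 2.97 in Cd3-negative barcodes. Baiap2, Gdpd5, Nrarp (a Notch target) and Ier5l also stood among the 12 highest. After thinning to 2000 UMIs Baiap2 was at 0.43 (4.34 before) and Gdpd5 at 0.21 (4.05 before). In both, the Tc1 count of 0 entered at the floor of 3. These values are therefore lower bounds and do not place the difference within 2-fold. Ier5l was at 0.79 after thinning (2.62 before), where the same floor may enter. Nrarp had 59.2 CPM in Tc9 and 6.14 CPM in Tc1 (3.27, 1.33 to 6.36), with log2 ratios of 3.67 in Cd3-negative barcodes and -0.41 in T cells.

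Of the 12 lowest, several are known from antigen-presenting cells. Apoe had 2.75 CPM in Tc9 and 107 CPM in Tc1 (-5.29, -8.39 to -3.33), and the class II genes H2-Eb1, H2-Aa and H2-Ab1 had log2 ratios of -3.42, -3.35 and -3.16. H2-Aa had a UMI in 5 of 64 barcodes in Tc9 and 14 of 38 in Tc1. In Cd3-negative barcodes they were at -4.51, -5.83 and -4.06, on 3, 1 and 3 UMIs in Tc9. In T cells the ratios of the class II genes were -3.64, -3.59 and -2.97. These genes moved with the dendritic and macrophage markers whose sums are given above, and the part of RNA from other cells in them was not tested. Plac8 had 42.6 CPM in Tc9 and 371 CPM in Tc1 (-3.12, -3.74 to -2.54), with -1.86 in T cells. Il4i1 had 26 UMIs in Tc1, all of them in 1 barcode.

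**Figure D5:**
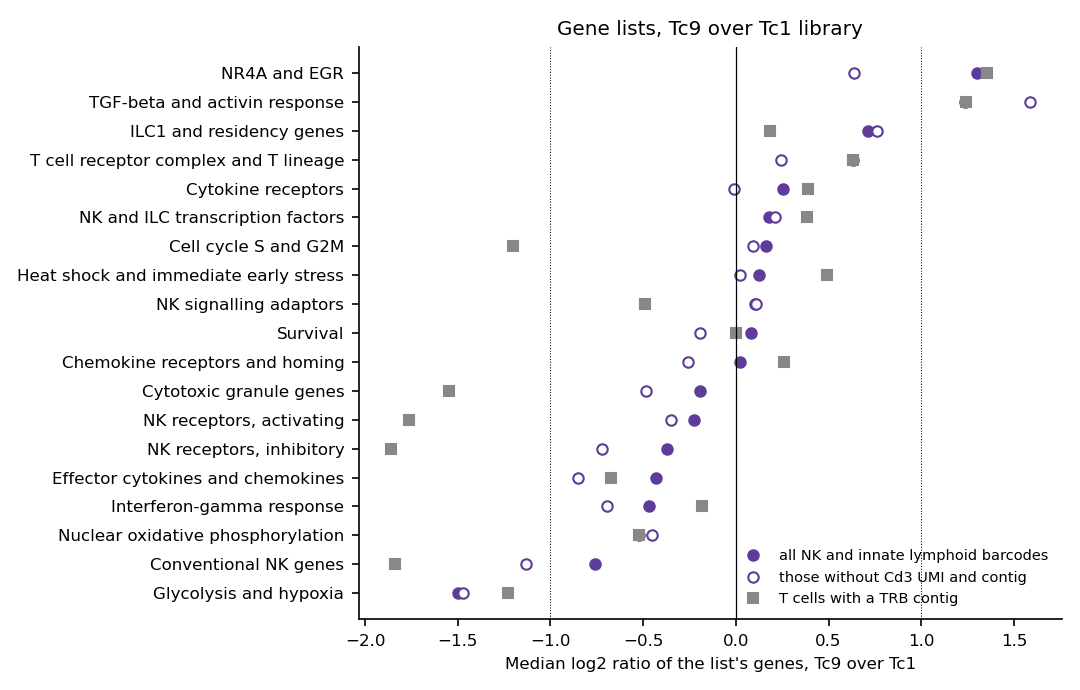
Median log2 ratio, Tc9 over Tc1, of the measured genes of each list in all NK and innate lymphoid barcodes (filled circles), in those without Cd3 UMI and contig (open circles) and in T cells (grey squares). Dotted lines mark 2-fold. The glycolysis and hypoxia list has medians of -1.50, -1.47 and -1.23, and the cytotoxic granule list has -0.19, -0.48 and -1.55.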

How the data were processed

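The authors deposited filtered UMI count matrices of 5′ single-cell RNA libraries and T cell receptor contig tables, made with Cell Ranger 7.0.0 on mm10 (GRCm38), per the submitters' processing notes. Raw counts were used as deposited. The members and gene lists were chosen with earlier results of these data known. Barcodes were filtered, UMIs summed per class and library, and scaled to CPM of all UMIs. Log2 ratios have exact conditional intervals, shares Clopper-Pearson intervals and differences of shares Newcombe intervals (95%, Python 3.11.15, scipy 1.17.1). The ratio code was checked on simulated counts. A count of 0 was set to a floor of 3 UMIs over the group, and no ratio is given where both groups have at most 3. Genes entered with at least 50 CPM, 20 UMIs and 5% of cells. A list median needs 3 such genes. The text names the 12 highest and 12 lowest genes of each comparison, up to 4 genes per list, and 38 genes in every case. Hcst, Itgae, Ldha, Slc2a1, Tgfbr2, Il17rb, Mki67, Top2a and the genes set beside Gzma and Gzmc were named after their values were seen. T cells had a TRB contig, at least 1 UMI of Cd3d, Cd3e or Cd3g, and at most 3 macrophage UMIs. Alternative filters left out barcodes above 2 times the median UMIs, and no doublet caller was run. CD8 T cells had also Cd8a or Cd8b1 and no Cd4. TMM factors came from edgeR 4.0.16 as an alternative scaling only. Coordinates are from RefSeq, GRCm38.p6. Each group was 1 library, so p-values are not given. A few named genes are not reported here.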

Additional observations from a re-analysis of the deposited data

Results flagged for a closer look

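Vegfa was 2-fold or more higher in the NK and innate lymphoid barcodes of Tc9 than in those of Tc1 and 2-fold or more lower in the T cells of Tc9 than in those of Tc1. The log2 ratio in the NK and innate lymphoid barcodes was 2.07, and in T cells -2.12. Both classes come from the same 2 RNA libraries, and the difference between the classes was not tested because each group is 1 library. The alternatives run gave log2 ratios between 1.60 and 2.96 in the NK and innate lymphoid barcodes.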

How the results depend on the processing

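No paired analysis was possible because each group is 1 RNA library and the labels give no replicate numbers. The share difference was 0.163 points with at least 2 Ncr1 UMIs. Filters of 1000 genes and 5% mitochondrial UMIs kept the same numbers of barcodes, 64 and 38. Genes higher in Tc9 numbered 696 at 1.5-fold, 184 after thinning and 546 at a minimum of 20 CPM, and genes lower 777, 128 and 441, with 421 at 0 macrophage UMIs. Against T cells, 142 genes were higher at 1.5-fold and 136 at 20 CPM, and 128 and 110 lower. Genes lower than in T cells numbered 84 against CD4 T cells, 30 against CD8 T cells, 86 after thinning, 74 by mean CPM, 121 for Cd3-negative barcodes, 94 without barcodes above 2 times the median UMIs, and 96 without Cd4 barcodes, a setting chosen after seeing the data. TMM scaling moved the median log2 ratio of all genes to 0.06, against -0.07 as reported. Of 81 named genes past 2-fold between Tc9 and Tc1, 39 were past it in the same direction under every setting run. The direction turned for Bcl11b (-0.11 thinned, -0.44 without Cd4), S1pr1 (-0.17 without Cd4, -0.61 Cd3-negative), Ifi27l2a (-1.01 without Cd4, -3.31 Cd3-negative), Il2ra (-0.32 Cd3-negative), Kit (1.79 thinned, 0.47 Cd3-negative), Cd8a (0.35 with at least 2 Ncr1 UMIs), and Bst2 (0.15) and Ccl1 (2.97) without barcodes above 2 times the median UMIs. The cause was not tested. After thinning, Il1rl1 was at -0.054 and Tnf at -0.38. Both are values that a Tc1 count at the floor of 3 gives, so no turn in direction is read from them. Lists without 3 measured genes under a setting have no median there. Depth limits all values: 20 Cd3-negative barcodes of Tc1 hold 166505 UMIs.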

Other observations

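Barcodes that met the RNA criteria but had a TRB contig, and so lay outside the rule, numbered 14 in Tc9 and 18 in Tc1. All of them had a Cd3 UMI, and their median depth was 14675 UMIs in Tc9 and 9040 UMIs in Tc1. The 16 Tc1 barcodes over the macrophage limit had a median of 14750.5 UMIs, against 5829 for the barcodes inside it. Gzme had 51 UMIs in Tc1, all in 1 barcode that also held 23 UMIs of Gzmd and 251 of Gzmc, and 0 UMIs in Tc9.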
